A study of Mus musculus with 12 samples.

Results

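The genes described here make or handle cholesterol and fatty acids or regulate their synthesis, and many of them are classical targets of the SREBP transcription factors. Of 35 listed genes, 33 were measured through probe sets that the platform annotation assigned to 1 gene symbol; they stood among 12393 genes named in that way. They comprised 19 genes of the sterol branch, 9 of the fatty acid branch and 4 regulators of SREBP processing or SREBP genes themselves. Ch25h, which encodes cholesterol 25-hydroxylase, was set beside them and is not counted as a member of either branch. The sterol gene Acat2 and the regulator Insig1 were not analysed here. The 33 genes had 66 probe sets, and 20 of them had more than 1; each gene was read from its brightest probe set by the mean of all 12 arrays.

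The cells were primary mouse embryonic fibroblasts at passage 4. Their 4 groups of 3 arrays were HtrA2 KO cells with 1 µM rotenone, HtrA2 KO cells with vehicle, wild-type cells with 1 µM rotenone and wild-type cells with vehicle, each kept for 4 h. HtrA2 is a mitochondrial serine protease, and rotenone inhibits respiratory complex I. The study asked which genes respond differently to rotenone when HtrA2 is missing. The labels do not say which stretch of Htra2 is deleted, or whether replicates came from different embryos or dishes. A p-value here reflects the spread between these arrays, and that spread may be technical.

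SREBP2 drives mainly genes of cholesterol synthesis, and SREBP1 mainly genes of fatty acid synthesis, although their targets overlap. Both are made as membrane precursors that SCAP escorts from the endoplasmic reticulum to the Golgi for cleavage when sterols are scarce. INSIG proteins hold SCAP back when sterols are plentiful, and oxysterols such as 25-hydroxycholesterol, the product of Ch25h, bind INSIG and block the escort.

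Values are log2 RMA levels, so a difference of levels is a log2 fold change. Array medians lay between 7.53 and 7.58. Htra2 averaged 7.77 ± 0.09 in KO rotenone, 7.67 ± 0.17 in KO vehicle, 9.08 ± 0.06 in wild-type rotenone and 9.06 ± 0.24 in wild-type vehicle arrays (SD, n = 3 each). A label field gives the wild-type rotenone arrays as knockout; titles and Htra2 levels placed them with wild type. Arrays numbered 3 stood apart in all 4 groups: their scores on the first principal component (44.7% of the variance) ran from 22.6 to 30.9, against -20.1 to -5.69 on the other 8 arrays. Results are therefore given without and with the replicate number as a block in the fit. All 11 fibroblast markers were measured and lay above the 60th percentile of probe sets, with a median percentile of 99.0. Markers of 7 other cell types had median percentiles from 23.7 to 50.1, with 0 to 2 markers of each above the 60th. In a bulk sample, fewer cells of one kind and less RNA per cell cannot be told apart.

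Promoter windows are shown because the sterol genes shared the direction of their estimates. RefSeq windows (assembly GRCm38.p6), running from 250 bases before to 50 after a transcript start, existed for 26 of the 33 measured genes (34 windows). Hmgcs1 and Idi1 are the sterol enzymes with the largest rotenone effects, Elovl6 is the fatty acid gene with the largest, and Ch25h is set beside them. Capitals mark CCAAT on either strand, written ATTGG where it lies on the opposite strand, and in Hmgcs1 also TCACNCCAC, the core of a classical sterol element.
Hmgcs1 chr13:119690101-119690400 plus strand: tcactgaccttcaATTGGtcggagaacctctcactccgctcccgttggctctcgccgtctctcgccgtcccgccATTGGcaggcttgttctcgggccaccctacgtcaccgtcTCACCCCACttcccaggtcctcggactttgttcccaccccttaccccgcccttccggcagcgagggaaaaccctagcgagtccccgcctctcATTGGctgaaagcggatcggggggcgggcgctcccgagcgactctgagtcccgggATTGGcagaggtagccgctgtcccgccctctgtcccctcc
Idi1 chr13:8885356-8885655 plus strand: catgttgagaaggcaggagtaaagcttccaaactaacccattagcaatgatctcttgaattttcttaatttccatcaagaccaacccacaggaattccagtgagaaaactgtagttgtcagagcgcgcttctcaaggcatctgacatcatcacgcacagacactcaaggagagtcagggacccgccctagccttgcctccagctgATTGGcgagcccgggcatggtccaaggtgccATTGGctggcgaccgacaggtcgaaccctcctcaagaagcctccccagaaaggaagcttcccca
Elovl6 chr3:129532136-129532435 plus strand: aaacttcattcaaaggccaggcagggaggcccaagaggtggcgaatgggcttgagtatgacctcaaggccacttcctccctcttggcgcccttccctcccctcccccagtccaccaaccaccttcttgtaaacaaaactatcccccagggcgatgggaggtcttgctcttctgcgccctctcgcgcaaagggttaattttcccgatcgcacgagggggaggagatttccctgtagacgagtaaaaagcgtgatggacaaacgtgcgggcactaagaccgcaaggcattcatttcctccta
Ch25h chr19:34475099-34475398 minus strand: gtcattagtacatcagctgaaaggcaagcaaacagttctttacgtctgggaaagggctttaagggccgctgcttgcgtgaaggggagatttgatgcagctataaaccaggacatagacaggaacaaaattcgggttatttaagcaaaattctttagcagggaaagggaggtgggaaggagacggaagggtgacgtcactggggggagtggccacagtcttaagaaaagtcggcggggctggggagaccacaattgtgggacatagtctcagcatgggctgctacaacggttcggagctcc

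The CCAAT box, known as the binding sequence of NF-Y, an SREBP partner, was found on either strand in a window of 15 of the 15 sterol genes that had one. Fdps, Fdft1, Sqle and Stard4 had no window and were not searched, so the count leaves out some sterol genes that fell with rotenone. The CCAAT box occurred in 3 of 6 fatty acid genes and 3 of 4 regulators, and not in Ch25h. Of all 32851 windows 37.4% held it, and of the 9887 measured genes with a window 42.3% did. Hmgcs1 had 4 matches in its window and Idi1 had 2, whereas the Elovl6 window had none. TCACNCCAC occurred in 1 of 15 sterol genes, Hmgcs1, and in none of the other members with a window. Its first base lay 137 bases upstream of the start (position -137). Of the measured genes with a window 1.5% held this motif, and of all windows 1.24%. The GC box GGGCGG, known as the binding sequence of SP1, lay in 13 of 15 sterol genes, 3 of 6 fatty acid genes and 4 of 4 regulators, against 61% of the measured genes. The E-box CACGTG lay in 3 of 15 sterol genes, 0 of 6 fatty acid genes and 1 of 4 regulators, against 10.8% of the measured genes. A gene with several windows counted once if any window matched, both strands were searched, and no match here overlapped a match to another motif. Whether the branches differ in these boxes was not tested. A match is a run of letters and not a shown binding site.

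**Figure D1:**
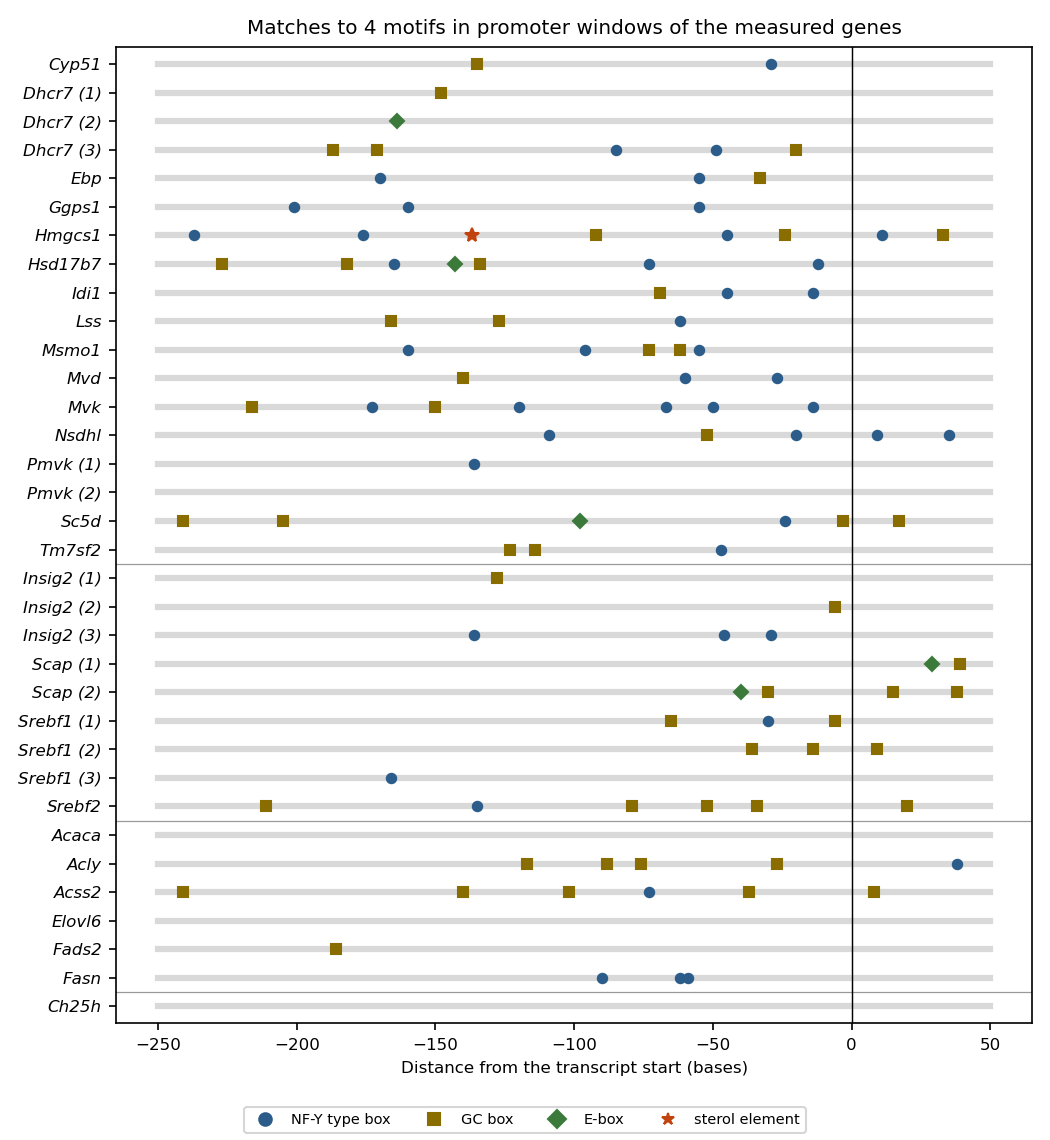
Position of motif matches (horizontal axis, bases from the transcript start) in the 34 promoter windows of the 26 genes; each grey bar is 1 window, numbered where a gene has several, and each symbol is the first base of a match on either strand. The NF-Y type box is CCAAT, the GC box GGGCGG, the E-box CACGTG and the sterol element TCACNCCAC. All 15 sterol genes with a window have a CCAAT match in at least 1 window, and the sterol element appears once, in Hmgcs1.

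The response to rotenone was read first as the mean of the effects in KO and wild-type cells, 6 rotenone against 6 vehicle arrays. The sterol branch stood lower with rotenone. All 19 of its measured genes had negative estimates, against 39.2% of all genes. Their median was -0.21, where the median over all genes was 0.03. In the fit without a block, 1 of the 19 fell and 18 did not pass (limma adjusted p under 0.05), against 0.105% of all genes called lower and 0.113% called higher. With the block 6 of the 19 fell, against 0.936% of all genes. The 9 fatty acid genes had a median of -0.12, with 0 called without and 1 called lower with the block, and the 4 regulators a median of -0.00, with 0 called in either fit. Among the 11 fibroblast markers, the platelet-derived growth factor receptor gene Pdgfra fell by 0.62 with the block (adjusted p = 0.0315) and 10 were not called; the median of the 11 was 0.01. Their part in the sterol result was not tested. All members and lists here were chosen with results of these arrays known, so these counts describe the genes and carry no test of the lists.

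**Figure D2:**
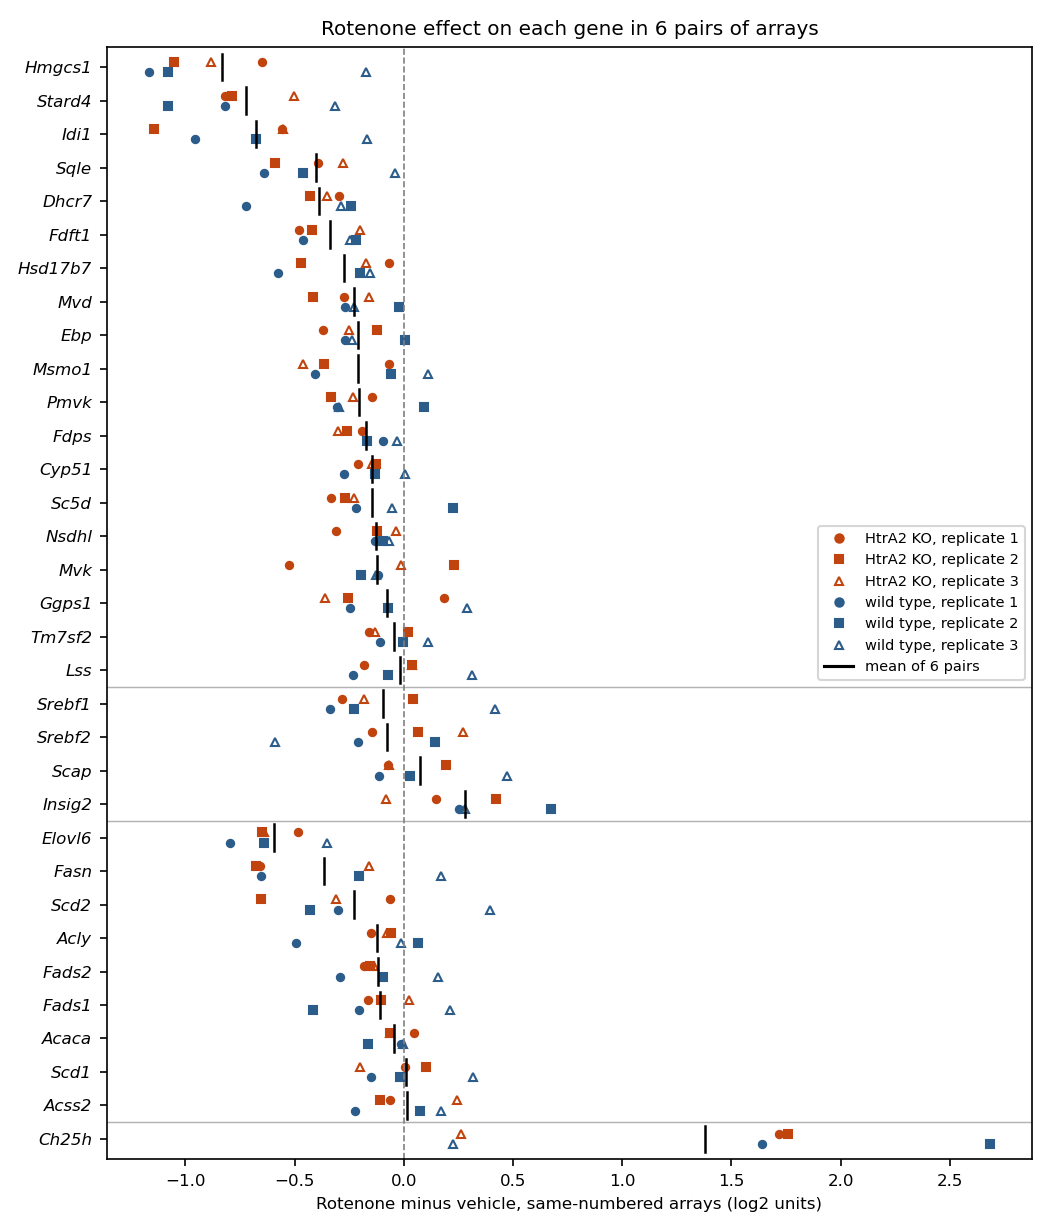
Rotenone minus vehicle level (horizontal axis, log2) of each of the 33 genes in the 6 pairs of arrays that share genotype and replicate number, HtrA2 KO above wild type in each row, replicates by symbol; the black line is the mean of the 6 pairs. Sterol genes lie mostly left of 0, with Hmgcs1 at -0.83 the furthest, and Ch25h lies right of 0 in all 6 pairs.

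Hmgcs1 encodes cytosolic HMG-CoA synthase, the enzyme that feeds the mevalonate pathway, and was the member called without a block. Its level was 10.12, 10.15 and 10.07 in KO rotenone arrays and 10.76, 11.20 and 10.95 in KO vehicle arrays. In wild-type cells it was 9.93, 9.81 and 10.57 with rotenone and 11.10, 10.89 and 10.75 with vehicle. Every rotenone array lay below every vehicle array of its genotype, and wild-type rotenone replicate 3 came closest to the vehicle arrays. The mean effect was -0.83 (SE 0.128), a 1.78-fold fall (limma adjusted p = 0.0322; 0.00165 with the block). Its other 3 probe sets gave -0.76, -0.78 and -0.86. Without a block the call was lost on leaving out 9 of the 12 arrays in turn, with adjusted p up to 0.108; it held without wild-type vehicle replicate 3 (0.0426), wild-type rotenone replicate 3 (0.00415) or KO rotenone replicate 3 (0.0372).

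Idi1 encodes isopentenyl diphosphate isomerase, which makes the second of the pathway's isoprene building blocks. It had 8.65, 8.62 and 8.74 in KO rotenone arrays, against 9.21, 9.76 and 9.30 in KO vehicle arrays. Wild-type arrays had 8.54, 8.53 and 9.12 with rotenone, against 9.50, 9.21 and 9.29 with vehicle. The treatments did not overlap in either genotype, although wild-type rotenone replicate 3 stood only just below the lowest wild-type vehicle array. The mean effect was -0.68 (SE 0.123) with an adjusted p of 0.0536 without the block; Idi1 fell 1.60-fold with it (adjusted p = 0.00473). A second probe set gave -0.76. Leaving out wild-type rotenone replicate 3 brought the fit without a block past the threshold as well (-0.77, adjusted p = 0.0185).

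Fdft1 encodes squalene synthase, the first enzyme committed to sterols. Its levels were 9.08, 9.10 and 9.34 in KO rotenone and 9.56, 9.52 and 9.54 in KO vehicle arrays. Wild-type levels were 9.07, 9.07 and 9.32 with rotenone and 9.53, 9.29 and 9.57 with vehicle. KO arrays did not overlap; in wild-type cells replicate 3 with rotenone lay above replicate 2 with vehicle. The effect of -0.34 (SE 0.0773) passed with the block (adjusted p = 0.0121; 0.153 without). Its other probe sets disagreed, 1 at -0.35 and 2 at 0.07 and 0.14. With the block the call was lost without wild-type vehicle replicate 1 (0.0576), KO vehicle replicate 2 (0.0520) or KO rotenone replicate 1 (0.0658).

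Sqle encodes squalene epoxidase, a rate-limiting step after squalene. Rotenone arrays had 10.23, 10.40 and 10.31 in KO cells, against 10.62, 10.99 and 10.59 in KO vehicle arrays. In wild-type cells rotenone arrays had 10.24, 10.39 and 10.63, against 10.88, 10.85 and 10.66 with vehicle. The treatments did not overlap in either genotype, but replicate 3 of the wild type differed by only -0.04. The effect of -0.40 (SE 0.0924) passed with the block (adjusted p = 0.0176; 0.157 without). That call was lost on leaving out 6 of the 12 arrays in turn, namely wild-type vehicle replicate 1 (0.0809), wild-type vehicle replicate 2 (0.0513), wild-type rotenone replicate 2 (0.0561), KO vehicle replicate 2 (0.0727), KO rotenone replicate 1 (0.0703) and KO rotenone replicate 2 (0.0604).

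Dhcr7 encodes the reductase that performs the last step to cholesterol. It stood at 7.14, 7.19 and 7.57 in KO rotenone arrays and at 7.44, 7.62 and 7.92 in KO vehicle arrays. In wild-type cells it stood at 6.86, 7.23 and 7.54 with rotenone and at 7.58, 7.47 and 7.82 with vehicle. The treatments overlapped in both genotypes because replicate 3 was high in all groups, yet each of the 6 same-numbered pairs was lower with rotenone. The effect was -0.39 (SE 0.130, adjusted p = 0.430) and was called with the block (SE 0.0702, adjusted p = 0.00780).

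Stard4 encodes a cytosolic sterol carrier and, unlike the others of this branch, no enzyme. Its levels were 7.58, 7.51 and 8.23 in KO rotenone arrays and 8.39, 8.30 and 8.74 in KO vehicle arrays. Wild-type arrays had 7.46, 7.14 and 8.38 with rotenone and 8.28, 8.22 and 8.70 with vehicle. KO arrays did not overlap, whereas wild-type rotenone replicate 3 lay above 2 vehicle arrays. The effect was -0.72 (SE 0.203, adjusted p = 0.298); with the block Stard4 fell 1.65-fold (SE 0.0907, adjusted p = 5.68e-04). A second probe set gave -0.52 (adjusted p = 0.00703 with the block).

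**Figure D3:**
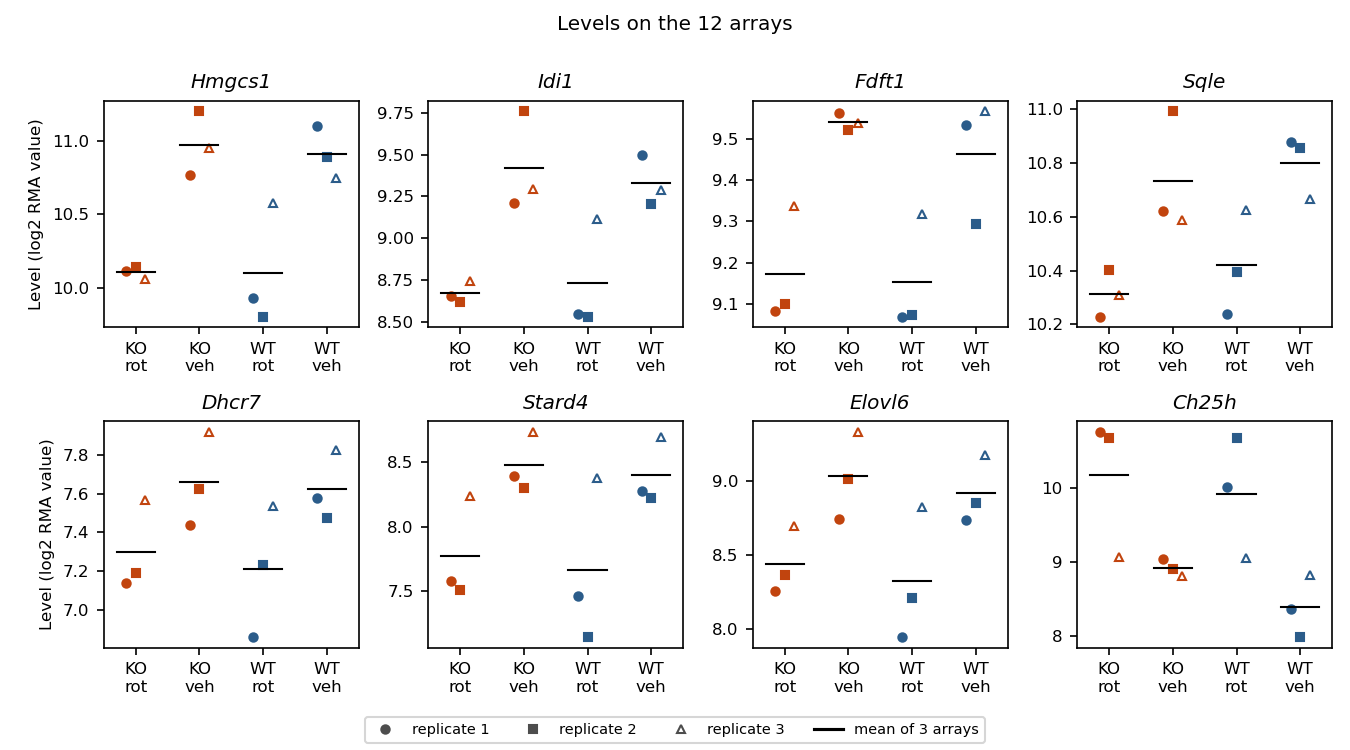
Log2 RMA level (vertical axis) on each of the 12 arrays for the 8 genes called in the mean rotenone effect with or without the block, in HtrA2 KO (red) and wild-type (blue) cells with rotenone (rot) or vehicle (veh); symbols are replicates and the line is the mean of 3 arrays. The open triangles, replicate 3, sit high in all 4 groups for Stard4, Dhcr7 and Elovl6 and, with rotenone, low for Ch25h.

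The other 13 sterol genes did not pass in either fit. The mevalonate kinases and decarboxylase gave -0.12 for Mvk, -0.20 for Pmvk and -0.23 for Mvd, whose adjusted p with the block was 0.0789. The prenyl synthases gave -0.17 for Fdps and -0.08 for Ggps1, which makes the geranylgeranyl group for protein prenylation and not a sterol. Demethylation and reduction steps after lanosterol gave -0.15 for Cyp51, -0.05 for Tm7sf2, -0.21 for Msmo1, -0.13 for Nsdhl and -0.27 for Hsd17b7. The late isomerase Ebp gave -0.21 and the desaturase Sc5d -0.15.

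The smallest effect in the branch was that of Lss, lanosterol synthase, which closes the sterol ring. Its levels were 9.06, 9.29 and 9.30 in KO rotenone, 9.25, 9.26 and 9.27 in KO vehicle, 8.94, 9.25 and 9.49 in wild-type rotenone and 9.17, 9.33 and 9.18 in wild-type vehicle arrays. The treatments overlapped in both genotypes, and the effect was -0.02 with a 95% interval from -0.21 to 0.18. Lss lies in the pathway just after Sqle, whose interval ran from -0.60 to -0.20.

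Counted pair by pair, 10 of the 19 sterol genes were lower with rotenone in all 6 same-numbered pairs, against 4.91% of all genes. These were Hmgcs1, Mvd, Idi1, Fdps, Fdft1, Sqle, Nsdhl, Hsd17b7, Dhcr7 and Stard4. Hmgcs1, Idi1 and Sqle were lower without overlap in both genotypes, 3 of 19 against 0.637% of all genes. Of the 9 fatty acid genes, Elovl6 alone was lower in all 6 pairs and 0 were lower without overlap in both genotypes.

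In the fatty acid branch the member with the largest effect was Elovl6, which lengthens palmitate to stearate. It had 8.26, 8.37 and 8.70 in KO rotenone arrays and 8.75, 9.02 and 9.34 in KO vehicle arrays. Wild-type arrays had 7.95, 8.21 and 8.83 with rotenone and 8.74, 8.85 and 9.18 with vehicle. KO arrays did not overlap, wild-type arrays did through replicate 3, and the 6 pair differences lay between -0.79 and -0.35. The effect of -0.59 had an SE of 0.156 and an adjusted p of 0.246 without the block. With it, Elovl6 fell 1.51-fold (SE 0.0698, adjusted p = 3.42e-04), and its second probe set gave -0.76.

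Fasn encodes fatty acid synthase, the central enzyme of the branch, and was not called. It had 9.52, 9.56 and 9.86 in KO rotenone and 10.18, 10.24 and 10.02 in KO vehicle arrays. Wild-type arrays had 9.33, 9.81 and 10.33 with rotenone and 9.98, 10.01 and 10.16 with vehicle. KO arrays did not overlap, but wild-type rotenone replicate 3 was the highest wild-type array. The effect was -0.36 (SE 0.140, adjusted p = 0.535; 0.110 with the block).

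Genes that supply carbon to the branch gave -0.12 for Acly, the citrate lyase, -0.04 for Acaca, the acetyl-CoA carboxylase, and 0.01 for Acss2, the acetyl-CoA synthetase. Among the desaturases Scd2 gave -0.23, Fads1 -0.11 and Fads2 -0.12. A dimmer Scd2 probe set gave -0.38 and passed with the block (adjusted p = 0.0266), so the probe sets of Scd2 differed in the call. Scd1, the other stearoyl-CoA desaturase measured, had the smallest effect, 0.01 (95% interval -0.19 to 0.21). Its levels were 10.17, 10.44 and 10.24 in KO rotenone, 10.16, 10.34 and 10.44 in KO vehicle, 10.21, 10.33 and 10.72 in wild-type rotenone and 10.36, 10.34 and 10.40 in wild-type vehicle arrays, and the treatments overlapped in both genotypes.

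Set against each other within each pair of arrays, the branches did not separate clearly. The median rotenone difference of the 19 sterol genes was -0.30, -0.33 and -0.23 in KO pairs 1 to 3 and -0.28, -0.13 and -0.13 in wild-type pairs 1 to 3. That of the 9 fatty acid genes was -0.15, -0.11 and -0.14 in KO pairs and -0.29, -0.17 and 0.17 in wild-type pairs. The sterol median was the lower one in all 3 KO pairs and in wild-type pair 3, and the higher one in wild-type pairs 1 and 2. The sterol minus fatty acid difference averaged -0.12 ± 0.13 (SD, n = 6 pairs), ranging from -0.29 to 0.03. No p is given for these scores, since the genes were picked with the results known.

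**Figure D4:**
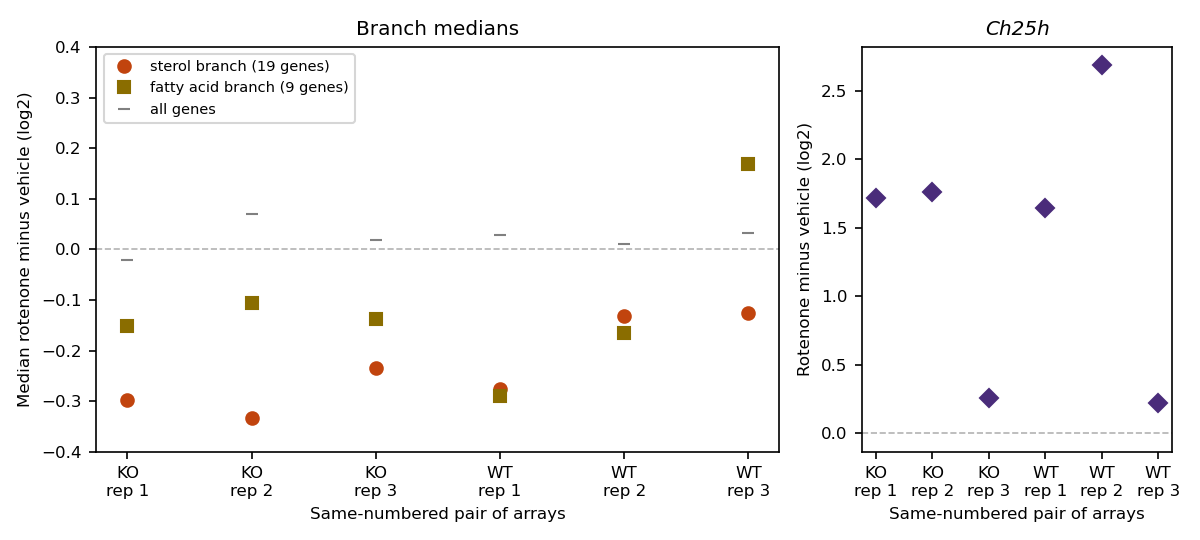
Left, the median rotenone minus vehicle difference (log2) of the sterol branch, the fatty acid branch and all genes in each of the 6 same-numbered pairs, HtrA2 KO left of wild type; right, the same difference for Ch25h. Sterol medians lie between -0.33 and -0.13 in all 6 pairs, the fatty acid median of wild-type pair 3 is 0.17, and the pairs numbered 3 give Ch25h 0.26 in KO and 0.22 in wild-type cells.

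Of the regulators none was called without or with the block on all 12 arrays. Insig2, an anchor of SCAP, had the largest estimate. It had 9.45, 9.71 and 8.79 in KO rotenone and 9.30, 9.28 and 8.87 in KO vehicle arrays, which overlapped. In wild-type cells 9.39, 9.33 and 9.30 with rotenone all exceeded 9.14, 8.65 and 9.02 with vehicle. The mean effect was 0.28 (SE 0.149, adjusted p = 0.706; 0.273 with the block). With the block it passed without KO rotenone replicate 3 (adjusted p = 0.0476) or without replicate 3 of every group (0.0198). A second probe set was higher with rotenone in all 6 pairs, by 0.21 to 0.34, with an effect of 0.27 (adjusted p = 0.741; 0.130 with the block); the third gave 0.09. In KO cells alone the estimate was 0.16 and turned to -0.034 without KO rotenone replicate 2.

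Srebf1 gave -0.10, Srebf2 -0.08 and Scap 0.07, the smallest of the 4. Scap levels were 10.04, 10.27 and 9.95 in KO rotenone, 10.11, 10.08 and 10.02 in KO vehicle, 9.90, 10.07 and 10.52 in wild-type rotenone and 10.01, 10.04 and 10.05 in wild-type vehicle arrays. The treatments overlapped in both genotypes. The transcripts of the SREBP genes thus had 95% intervals of -0.38 to 0.19 for Srebf1 and -0.31 to 0.15 for Srebf2; cleavage of the proteins was not measured.

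Ch25h had an effect of the opposite sign. It had 10.75, 10.67 and 9.07 in KO rotenone arrays and 9.04, 8.91 and 8.81 in KO vehicle arrays. Wild-type arrays had 10.01, 10.67 and 9.05 with rotenone and 8.37, 7.99 and 8.83 with vehicle. It was higher with rotenone in all 6 pairs, against 7.24% of all genes, and did not overlap in either genotype, against 0.871%. The mean effect was 1.38 (SE 0.317, adjusted p = 0.155), and with the block Ch25h rose 2.60-fold (SE 0.246, adjusted p = 0.00724), where 1.53% of all genes were called higher. The pairs numbered 3 gave 0.26 in KO and 0.22 in wild-type cells, the other 4 pairs 1.64 to 2.68. Without KO rotenone replicate 3 the effect passed also without a block (1.65, adjusted p = 0.0170).

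The 8 calls with the block also depended on which replicate numbers entered. Without replicate 1 of every group, Elovl6 passed (adjusted p = 0.0332) and the other 7 did not. Without replicate 2 of every group, 0 of the 8 passed, with adjusted p from 0.0681 for Elovl6 to 0.261 for Sqle and Ch25h. Without replicate 3 of every group all 8 passed, with effects of -0.99 for Hmgcs1, -0.88 for Stard4 and 1.95 for Ch25h.

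Other genes of sterol and fatty acid metabolism were read from a context list of 59 genes, of which 43 were measured, 13 of them fatty acid genes. Another 7 came from a mixed list of sterol synthesis genes, SREBP targets and related genes, among them Nus1 of dolichol synthesis. In the mean over genotypes those 7 had a median effect of -0.06, with 4 negative and 3 positive estimates, where 39.2% of all genes were negative. In that mean they did not share the uniform sign of the sterol branch. In KO cells 6 of the 7 were negative (median -0.16), against 41.0% of all genes. In wild-type cells 3 of the 7 were negative (median 0.04), against 43.1%. The interaction estimates were negative for all 7, and none was called. The median of all 43 in the mean over genotypes was 0.04. Without a block 1 rose, against 0.113% of all genes, and 0 fell, against 0.105%. With the block 3 rose, against 1.53% of all genes, and 2 fell, against 0.936%. Gramd1a, a carrier of cholesterol from the plasma membrane to the endoplasmic reticulum, rose by 0.50 (adjusted p = 0.0418; 0.00469 with the block). With the block Vldlr, a lipoprotein receptor, rose by 0.62 (adjusted p = 2.17e-04) and Npc1, which exports cholesterol from lysosomes, by 0.46 (0.0375). Nus1, a subunit of the dolichol-making prenyltransferase, fell by 0.36 (0.0219), and Tmem97, a sterol-responsive membrane protein, by 0.34 (0.0493). None of the 10 measured genes of oxysterol handling, LXR signalling and efflux passed in either fit, with effects from -0.18 to 0.18.

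Within each genotype no member passed without the block, where 0.00807% of all genes were called in KO and in wild-type cells alike. Hmgcs1 had the smallest p in both, with -0.86 in KO (adjusted p = 0.507) and -0.81 in wild-type cells (0.461). With the block 3 members fell in each genotype, against 0.169% of all genes in KO and 0.21% in wild-type cells. They were Hmgcs1 (KO -0.86, adjusted p = 0.0477; wild type -0.81, 0.0457), Stard4 (KO -0.70, 0.0316; wild type -0.74, 0.0183) and Elovl6 (KO -0.59, 0.0156; wild type -0.60, 0.0141). These calls depended on single arrays. With 1 of the 12 arrays left out in turn, KO calls were lost 9 times for Hmgcs1 (adjusted p up to 0.437), 6 times for Stard4 (0.318) and 6 times for Elovl6 (0.171). Wild-type calls were lost 7 times for Hmgcs1 (up to 0.339), 4 times for Stard4 (0.183) and 4 times for Elovl6 (0.133). Ch25h gave 1.25 in KO and 1.52 in wild-type cells and passed in neither (0.0770 in wild type with the block, where 0.492% of all genes rose, against 0.161% in KO cells). The sterol median was -0.25 in KO and -0.17 in wild-type cells, and the fatty acid median -0.10 in KO and -0.11 in wild-type cells.

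The difference between the rotenone effects of the genotypes, the study's question, was tested as an interaction. No member and no other gene passed it with limma, without or with the block (0.0% of genes in either fit). Among the 22626 probe sets tested, 82 without and 295 with the block had an unadjusted limma p under 0.05. Both counts are below what that threshold would give by chance alone. The smallest p among members was that of Sc5d, at -0.26 (SE 0.173, 95% interval -0.64 to 0.12). Srebf2 followed at 0.28, with an interval from -0.18 to 0.74. For Hmgcs1, Stard4 and Elovl6, the members called within each genotype with the block, the estimates in the 2 genotypes nearly coincided. The intervals of the members were wide, however, and differences inside them were not detectable with these arrays.

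**Figure D5:**
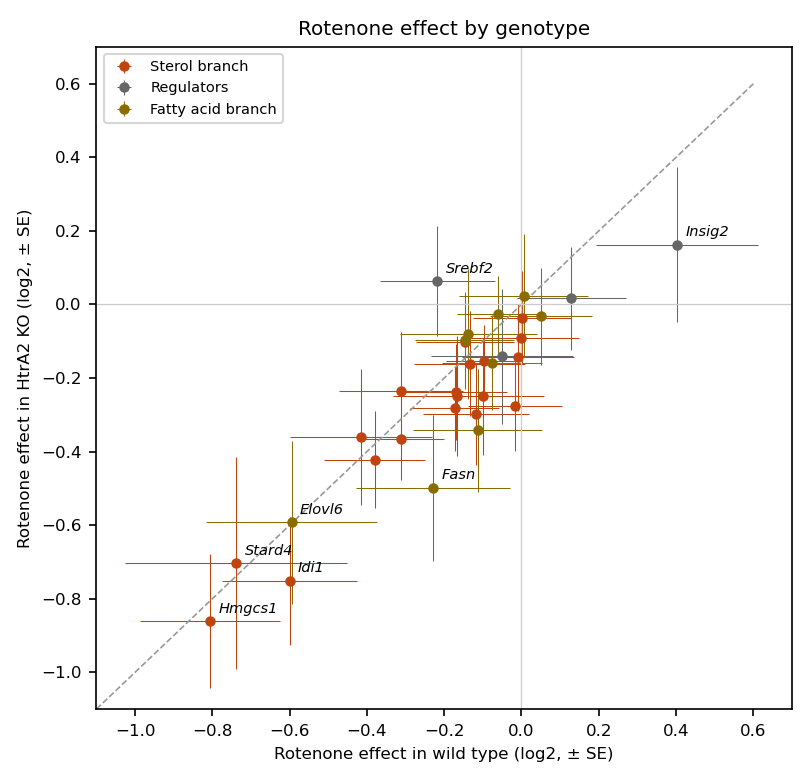
Rotenone effect (log2, ± SE) in HtrA2 KO cells on the vertical axis against that in wild-type cells on the horizontal axis for the 32 sterol, regulator and fatty acid genes; the dashed line marks equal effects. Hmgcs1, Idi1, Stard4 and Elovl6 lie lowest in both genotypes, and Srebf2 has estimates of opposite sign.

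KO and wild-type cells were also compared directly. In vehicle no member passed in either fit, against 0.00807% of all genes without and 0.0242% with the block. Ch25h stood 0.53 higher in KO cells (SE 0.448, adjusted p = 1.0), and Sc5d, with the smallest p, 0.16 higher. In rotenone again no member passed, against 0.00807% and 0.0565% of all genes. Srebf2 had the smallest p there. It had 9.57, 9.91 and 9.93 in KO rotenone and 9.45, 9.70 and 9.07 in wild-type rotenone arrays. The groups overlapped, wild-type replicate 3 was low, and the difference was 0.40 (SE 0.149, adjusted p = 0.835; 0.273 with the block).

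Because replicate 3 stood apart, the arrays numbered 3 were compared with those numbered 1 and 2, a comparison chosen after seeing the data. Of all genes 22.9% differed in level, and 7 of the 33 members were among them, a share near that of all genes. Higher on the arrays numbered 3 were Stard4 by 0.65 (adjusted p = 2.74e-04), Elovl6 by 0.49 (6.64e-04), Dhcr7 by 0.39 (0.00207), Fads1 by 0.34 (0.0140) and Ebp by 0.31 (0.0172). Lower were Acss2 (-0.29, adjusted p = 0.0355) and Tm7sf2 (-0.26, 0.0302). On the same arrays marker levels differed too, with list medians 1.43 higher for proliferation (5 of 5 measured genes higher), 1.96 for inflammation (5 of 6, with Ptgs2 at -0.84) and 1.21 for adipocytes (4 of 5, with Cidec at -0.01). Medians were also 0.73 higher for epithelium (5 of 5), 0.41 for macrophages (6 of 6, with Lyz2 at 2.26) and 0.23 for muscle (5 of 5). The other lists had medians of 0.04 for endothelium, -0.034 for neural, -0.10 for hepatocyte and -0.14 for fibroblast markers. The part of these markers in the members' differences was not tested. The proliferation and inflammatory lists describe states and not cell types.

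The rotenone effect itself differed between replicate 3 and replicates 1 and 2 for 0.0968% of all genes and for 1 member, Ch25h. For Hmgcs1 it was -0.53 in the pairs numbered 3 and -0.99 in the others, for Idi1 -0.36 and -0.83, for Stard4 -0.41 and -0.88, and for Elovl6 -0.50 and -0.64. None of these differences passed (adjusted p from 0.369 to 0.893). Fasn gave 0.01 in the pairs numbered 3 and -0.55 in the others (adjusted p = 0.348).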

How the data were processed

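Per the submitters' processing notes, the deposited values are log2 expression values made with RMA, which corrects background, brings the arrays to a common distribution and summarises probes; its version was not given in the sources used here. This processing shrinks differences near background, and a shift common to most transcripts would not show. Signal over background is not known here, and precision is limited by the number of arrays.

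Of 22690 probe sets, 64 controls were left out and 22626 tested with limma 3.58.1 (lmFit, eBayes, R 4.3.3, two-sided), using a single model of 4 group means for the 12 arrays. Adjusted p-values followed Benjamini and Hochberg over all 22626, with a threshold of 0.05. The main alternative added the replicate number to that model as a block. The labels give the numbers without saying what they share. In all 18 same-numbered pairs of arrays, deviations from group means correlated (r 0.289 to 0.829), so the numbers were taken as pairing on the evidence of the data; within numbers 1 and 2 the range was 0.289 to 0.554, and for number 1 against number 2 it was -0.053 to 0.476. No further normalization was applied. The fit was tested on simulated data.

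The members, the context and marker lists and the motifs were chosen with earlier results of these data known. Levels on every array are given for members past the threshold in the mean rotenone effect in either fit, for Ch25h, and for those with the largest and smallest effect of each list; Fasn was added after its values were seen, as the central enzyme of its branch, and the 4 promoters were also picked with results known. In other comparisons, members past the threshold or with the smallest p are named. RefSeq tables of GRCm38.p6 gave the promoter windows. The 7 measured members without a window were Fdps, Fdft1, Sqle, Stard4, Scd1, Scd2 and Fads1.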

Additional observations from a re-analysis of the deposited data

Results flagged for a closer look

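The rotenone effect on Ch25h differed between replicate numbers. It was 0.24 in the pairs numbered 3 and 1.95 in the pairs numbered 1 and 2, a difference of -1.71 (SE 0.215, limma adjusted p = 0.00300), with the pairs numbered 3 lower in both genotypes. The comparison was chosen after seeing the data.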

How the results depend on the processing

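The count of sterol genes called in the mean rotenone effect, 1 of 19, was 6 with the replicate block, 6 with replicates 1 and 2 alone, 5 with array weights, 2 with quantile normalization, 2 without dim probe sets and 0 with the most variable probe set of each gene. Leaving out 1 array gave 0 to 3 (4 to 7 with the block), and the block without replicate 1, 2 or 3 of every group gave 0, 0 or 7. For fatty acid genes, 0 in the main fit, the count was 1 with the block, 2 with replicates 1 and 2 alone, 2 with array weights, 1 to 3 with the block and 1 array left out, and 1 or 3 without replicate 1 or 3 of every group. For regulators it reached 1 with the block without KO rotenone replicate 3 or without replicate 3 of every group.

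In KO cells, sterol calls (0) became 2 with the block, 3 with replicates 1 and 2 alone, 2 with array weights and 4 with the block without replicate 3 of every group; with the block and 1 array left out they ran from 0 to 3. In wild-type cells the same settings gave 2, 3, 1, 4 and 0 to 4. Fatty acid calls became 1 in both genotypes with the block (0 to 1 with 1 array left out), 1 in wild-type cells with replicates 1 and 2 alone, and 2 in KO and 1 in wild-type cells without replicate 3 of every group. The sterol median in wild-type cells was -0.27 with array weights. Interaction medians moved to -0.14 for sterol genes (block, without wild-type vehicle replicate 1) and -0.15 for fatty acid genes (block, without replicate 1 of every group). Between genotypes, 1 member was called in vehicle with the block without replicate 3 of every group, and the fatty acid median in rotenone became 0.081 without wild-type rotenone replicate 3 (range with 1 array left out -0.11 to 0.081). The causes of these changes were not tested.

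Directions turned for Insig2 in KO cells (rotenone minus vehicle -0.034 without KO rotenone replicate 2, -0.062 with the block as well; range with 1 array left out -0.034 to 0.43, main 0.16). They turned for Fasn in wild-type cells too (0.018 without wild-type rotenone replicate 1; range -0.48 to 0.018, main -0.23). Over all probe sets the mean effect called 49, and 7 to 1054 over the alternatives. Adjusted p over the alternatives reached 0.117 for Hmgcs1, 0.247 for Idi1, 0.614 for Stard4, 0.568 for Fdft1, 0.444 for Sqle, 0.817 for Dhcr7, 0.565 for Elovl6 and 0.432 for Ch25h. All 8 kept their direction in all 36 alternatives.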
